A study of Homo sapiens with 8 samples.

Results

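The IGF-binding proteins are a family of 7 genes, IGFBP1 to IGFBP7, taken by gene symbol from the 19158 genes of each library, and all 7 were found. The cells were A549, labelled wild type, an established line of epithelial origin from a human lung adenocarcinoma. The untreated group held 4 libraries, and the other group held 4 libraries of cells given 1 µM dexamethasone, a synthetic glucocorticoid, for 48 h. Each library came from its own culture well of this single line, in medium with serum, so p-values measure the spread between wells. The replicates were numbered 1, 3, 4 and 5 in both groups, and every library carried the batch label 1.

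IGF-binding proteins are secreted carriers of the insulin-like growth factors IGF-I and IGF-II. They hold the growth factors away from the type 1 IGF receptor, prolong their life in tissue fluid, and release them when proteases such as pappalysin cut the carrier. Several members also act at cell surfaces or in the nucleus without a growth factor, and in liver IGFBP1 is a textbook target of glucocorticoids and insulin.

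The deposited values were read as FPKM, that is fragments scaled by transcript length and by the size of the library. The sources used here do not name the unit, and comparisons of levels between genes rest on this reading. The treatment labels were checked first with FKBP5, a glucocorticoid receptor target that encodes a co-chaperone of the receptor. FKBP5 lay between 3.28 and 7.30 FPKM among untreated and between 87.3 and 166 FPKM in dexamethasone libraries. Of 5 epithelial markers, the keratins KRT8 and KRT18 averaged 1453 and 946 FPKM in untreated and 1878 and 919 FPKM in treated libraries, with neither called. KRT19 fell from 156 to 54.7 FPKM and the cadherin gene CDH1 rose from 6.80 to 18.2 FPKM (limma adjusted p = 0.00119 and 8.08e-05), while the adhesion gene EPCAM was nearly absent at 0.538 ± 0.264 and 0.253 ± 0.101 FPKM (SD, n = 4 each). Marker genes of fibroblasts summed to 1.81 to 2.29 FPKM among untreated and 0.598 to 0.779 FPKM in dexamethasone libraries over 5 genes, with COL1A2 listed at 0 in all 8. The 5 leukocyte markers summed to 5.78 to 7.52 and 3.07 to 3.75 FPKM, with PTPRC and CD3E listed at 0 throughout, and the 4 endothelial markers stayed at or under 0.182 FPKM in sum. Mitochondrial genes held 1.74% to 6.04% of the summed FPKM in untreated and 2.55% to 9.44% in dexamethasone libraries, highest in dexamethasone replicate 1. At each replicate number the share was higher in the dexamethasone than in the untreated library. Untreated replicate 5 had 10555 genes at 1 FPKM or more, against 11290 to 11378 in the other untreated libraries, and the falls of members are therefore also given without both libraries numbered 5. RNA came from whole wells, so fewer cells of a type and less RNA per cell cannot be told apart.

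IGFBP3 and IGFBP4 are shown by the sequence before their start sites, because IGFBP3 had the largest fall among the tested members and IGFBP4 was the most abundant. RefSeq windows (GRCh38.p14) of 300 bases, 250 before and 50 after a start site, were found for 5 of the 7 members, in 7 windows. The 250 bases before the start lie at chr7:45921273-45921522 on the minus strand for IGFBP3 and at chr17:40443200-40443449 on the plus strand for IGFBP4. The IGFBP3 stretch lies within the span of the gene given with the values (45912245 to 45921874), but in no GENCODE v44 exon of it. Capitals mark matches to the motifs named in the next paragraph.
IGFBP3: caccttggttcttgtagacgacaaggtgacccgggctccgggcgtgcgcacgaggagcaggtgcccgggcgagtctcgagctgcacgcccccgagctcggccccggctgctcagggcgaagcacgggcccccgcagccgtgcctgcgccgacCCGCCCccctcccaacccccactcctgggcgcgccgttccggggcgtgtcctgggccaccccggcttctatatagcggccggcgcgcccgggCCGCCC
IGFBP4: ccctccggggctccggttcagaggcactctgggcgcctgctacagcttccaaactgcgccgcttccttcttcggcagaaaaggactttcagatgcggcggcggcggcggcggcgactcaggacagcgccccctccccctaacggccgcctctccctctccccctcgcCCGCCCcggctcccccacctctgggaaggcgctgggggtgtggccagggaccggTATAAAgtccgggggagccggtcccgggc

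Motifs were searched on both strands. The glucocorticoid receptor hexamer AGAACA, followed after 3 bases by TGTTCT, was in 0.00285% of all 35116 windows and in none of the members' windows. The single hexamer AGAACA was in 14.8% of windows, and among the members it matched only in IGFBP2, once in each of 2 of its 3 windows. The inverted repeat of CTCC and GGAGA with 0, 1 or 2 bases between them, known from repression by the receptor, was in 1.72% of windows and, among the members, in IGFBP5. The AP-1 motif TGANTCA was in 7.71% of windows and in no member's. The FOXO motif GTAAACA was in 3.42% of windows and matched in IGFBP6, at 186 to 180 bases before its start, within an exon of a longer annotated transcript of that gene. The TATA motif TATAAA, in 11.5% of windows, matched in IGFBP4. Only that exact string was searched, so a variant such as the tatata in the printed IGFBP3 stretch is not marked. The GC box GGGCGG, in 45.0% of windows, matched in IGFBP2, IGFBP3, IGFBP4 and IGFBP6. IGFBP3 and IGFBP6, the members that fell, both matched the GC box, which in IGFBP6 also lies within that exon and is common among all windows. No matches of different motifs overlapped in a member's window. A match here describes letters in a short window and not a bound site.

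In untreated A549 cells IGFBP4 dominated the family. IGFBP4 (ENSG00000141753, chromosome 17, 40443461 to 40457731, plus strand, GRCh38 as given with the values), the carrier that pappalysin cuts, was at 1125 ± 162 FPKM (SD, n = 4) and ranked 29 among all genes. It made up 85.8% ± 0.399 (SD, n = 4) of the summed FPKM of the 7 members. IGFBP6, IGFBP7, IGFBP2 and IGFBP3 followed at 72.4 ± 13.1, 44.4 ± 7.75, 34.3 ± 6.36 and 28.5 ± 3.39 FPKM (SD, n = 4 each). IGFBP1 was at 5.67 ± 0.600 FPKM and IGFBP5 at 0.234 ± 0.0833 FPKM (SD, n = 4 each). The untreated ranges of IGFBP7 and IGFBP2 overlapped, as did those of IGFBP2 and IGFBP3, although within each of the 4 libraries the order of these 3 genes was the same. All other neighbours in the order were separated.

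**Figure D1:**
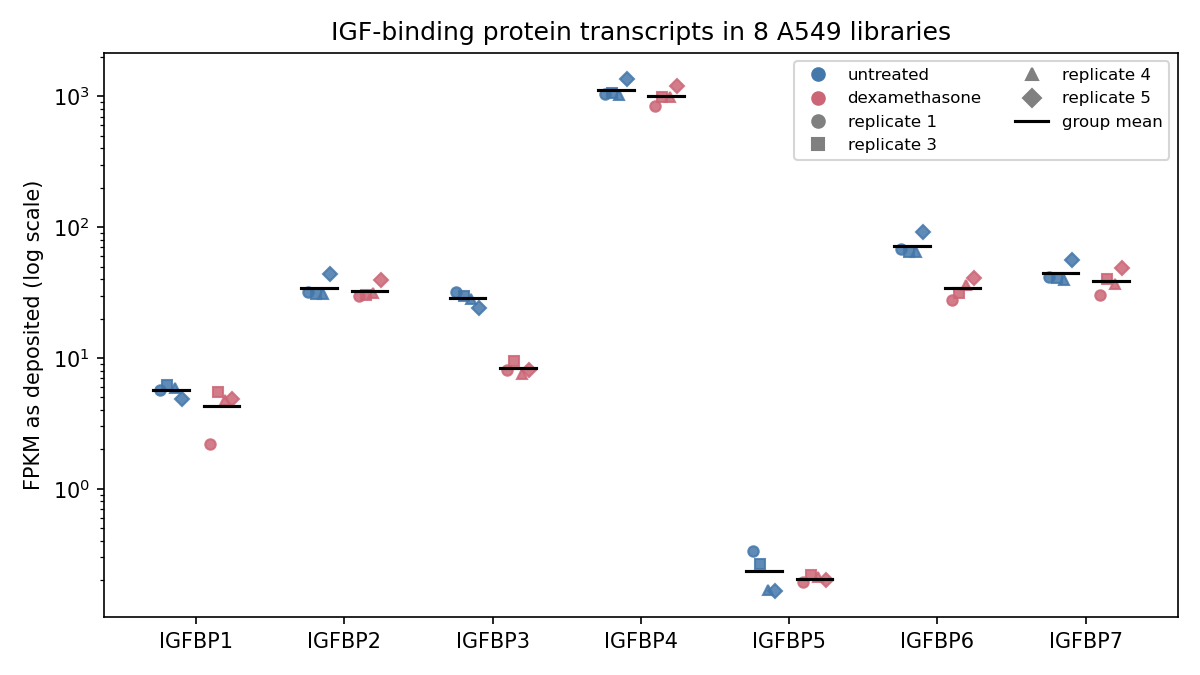
FPKM of the 7 IGF-binding protein genes on a log axis in 4 untreated and 4 dexamethasone libraries, with the replicate number as the marker and the group mean as a line. IGFBP3 and IGFBP6 have no overlap between groups, IGFBP4 is highest in every library, and IGFBP5 lies under 0.5 FPKM throughout.

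After dexamethasone 2 members fell and none passed the test upwards. Differences were tested on log2(FPKM + 1) with limma over all 12161 genes with at least 0.5 FPKM in at least 4 libraries, with Benjamini-Hochberg adjustment and a threshold of 0.05, and fold changes on that scale understate those of low genes. Of the 7 members, 6 passed the filter on low values and IGFBP5 did not. Among all tested genes 14.2% were called lower and 12.8% higher. The members' counts were 2 of 6 lower (IGFBP3 and IGFBP6) and 0 of 6 higher, and 4 of the 6 had an unadjusted p above 0.05. The median log2 fold change of the 6 was -0.27, beside 0.03 over all tested genes. Groups that did not overlap and were lower after dexamethasone were found for the same 2 members, and for 19.2% of all tested genes.

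IGFBP3 had the largest change in the family. It encodes the main IGF carrier of the circulation, which forms a ternary complex with the acid-labile subunit, and is also known to inhibit growth by itself. The gene (ENSG00000146674, chromosome 7, 45912245 to 45921874, minus strand) was at 32.0, 29.8, 28.3 and 24.0 FPKM across untreated replicates 1, 3, 4 and 5. In the dexamethasone replicates 1, 3, 4 and 5 it was at 8.07, 9.51, 7.56 and 8.14 FPKM. All 4 treated libraries were lower than every untreated library, and the ratio of the group means, untreated over dexamethasone, was 3.43. On the log2 scale it fell by 1.65, with an SE of 0.118 (limma adjusted p = 1.13e-05). Without both libraries numbered 5 the log2 fold change was -1.69 (limma adjusted p = 2.47e-05).

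IGFBP6 also fell. It is the member with a strong preference for IGF-II over IGF-I. The gene (ENSG00000167779, chromosome 12, 53097436 to 53102345, plus strand) was at 68.4, 64.4, 65.0 and 91.9 FPKM across untreated replicates 1, 3, 4 and 5, against 27.8, 31.7, 36.0 and 40.7 FPKM in the treated replicates of those numbers. The groups did not overlap, and in each group replicate 5 was the highest library. The ratio of the group means was 2.13, and IGFBP6 fell by 1.05 on the log2 scale, with an SE of 0.222 (limma adjusted p = 0.00687). Without both libraries numbered 5 its log2 fold change was -1.0 (limma adjusted p = 0.00027), and with each library's trend on gene GC content removed it was -0.78 (limma adjusted p = 0.000342). The summed fibroblast and leukocyte markers were lower after dexamethasone as well, by the values given above. In untreated libraries the fibroblast sum was mostly COL1A1, which fell from a mean of 2.03 to 0.367 FPKM, and PDGFRB was also lower in mean. DCN went the other way, from 0 to 0.286 FPKM, as did LUM, from 0.00661 to 0.0288 FPKM. The part of these markers in the falls of IGFBP3 and IGFBP6 was not tested.

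The most abundant member, IGFBP4, did not pass the test. Its values were 1040, 1066, 1026 and 1367 FPKM among untreated and 837, 998, 983 and 1209 FPKM among dexamethasone replicates 1, 3, 4 and 5. The groups overlapped through dexamethasone replicate 5, and dexamethasone replicates 1, 3 and 4 lay below every untreated library. The numbered 5 library was again the highest of each group. The log2 fold change was -0.15, with a 95% interval of -0.65 to 0.35 (limma adjusted p = 0.642), so a fall or rise of up to those sizes is not distinguished. The value depended on the setting, at 0.10 with the GC trend removed, 0.01 without untreated replicate 5 and -0.28 without dexamethasone replicate 5. Without both libraries numbered 5 it was -0.12 (limma adjusted p = 0.335).

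IGFBP7, a more distant relative with low affinity for IGFs that is deposited in the matrix of blood vessels, also did not pass the test. The gene (ENSG00000163453, chromosome 4, 57030773 to 57110385, minus strand) was at 41.4, 41.0, 39.2 and 55.9 FPKM among untreated and 30.4, 39.9, 36.5 and 49.1 FPKM among dexamethasone replicates 1, 3, 4 and 5. Its groups overlapped, and the log2 fold change was -0.18 (95% interval -0.69 to 0.34, limma adjusted p = 0.591). Without untreated replicate 5 that value was 0.00, and without dexamethasone replicate 5 it was -0.33. Without both libraries numbered 5 it was -0.15 (limma adjusted p = 0.305). IGFBP7 overlaps POLR2B and an antisense gene on the opposite strand, and whether reads were assigned by strand is not given in the sources used here.

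IGFBP2, an RGD-bearing carrier that can bind integrins, was also not distinguished from untreated. The gene (ENSG00000115457, chromosome 2, 216632828 to 216664436, plus strand) was at 32.2, 30.7, 30.7 and 43.8 FPKM among untreated and 29.6, 30.1, 31.6 and 39.4 FPKM among dexamethasone replicates 1, 3, 4 and 5. The values of replicates 1, 3 and 4 were nearly the same in both groups. The log2 fold change was -0.05 (95% interval -0.53 to 0.43, limma adjusted p = 0.873), and its sign turned in other settings. It was 0.14 once the trend on GC content was taken out, 0.13 without untreated replicate 5, 0.01 without dexamethasone replicate 1, and 0.00 in the 6 libraries not numbered 5.

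IGFBP1, the insulin-suppressed carrier secreted by liver and decidua, was low and did not pass the test. The gene (ENSG00000146678, chromosome 7, 45888357 to 45893668, plus strand) was at 5.71, 6.20, 5.94 and 4.82 FPKM across untreated replicates 1, 3, 4 and 5. In dexamethasone replicates 3, 4 and 5 it was at 5.53, 4.75 and 4.84 FPKM, and replicate 1 stood below them at 2.19 FPKM. The groups overlapped, with a log2 fold change of -0.36 (95% interval -0.85 to 0.14, limma adjusted p = 0.252). Without dexamethasone replicate 1, the library with the highest mitochondrial share, the log2 fold change was -0.12 (limma adjusted p = 0.555), and the part of that share in the result was not tested. No rise of IGFBP1 was measured in any of the 16 other settings tried, all of which gave a negative value.

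IGFBP5, a carrier that binds extracellular matrix and bone mineral, was close to silent in both groups. The gene (ENSG00000115461, chromosome 2, 216672105 to 216695525, minus strand) was at 0.336, 0.268, 0.167 and 0.165 FPKM among untreated and 0.193, 0.219, 0.213 and 0.201 FPKM among dexamethasone replicates 1, 3, 4 and 5. All dexamethasone values lay within the untreated range. IGFBP5 overlaps DIRC3-AS1 on the opposite strand. In a fit without the filter on low values the log2 difference of IGFBP5 was -0.03, with an SE of 0.0417 (limma adjusted p = 0.698).

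The make-up of the family's transcripts changed with these falls. In dexamethasone libraries IGFBP4 held 89.5%, 89.5%, 89.4% and 89.5% of the summed FPKM of the 7 genes in replicates 1, 3, 4 and 5, above its 85.2% to 86.1% in untreated libraries. The share of IGFBP6 was 5.51% ± 0.249 in untreated and 3.02% ± 0.181 in dexamethasone libraries (SD, n = 4 each). The share of IGFBP3 was 2.23% ± 0.491 in untreated and 0.752% ± 0.128 in dexamethasone libraries (SD, n = 4 each). IGFBP7 held 3.38% ± 0.107 and 3.45% ± 0.191 (SD, n = 4 each). By mean level the order after dexamethasone was IGFBP4, IGFBP7, IGFBP6, IGFBP2, IGFBP3, IGFBP1 and IGFBP5. IGFBP6 thus stood below IGFBP7 in all 4 treated libraries and above it in all 4 untreated ones, and after treatment its range overlapped those of IGFBP7 and IGFBP2.

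IGFBP2, IGFBP4, IGFBP6 and IGFBP7 varied together from well to well within a group, but not as a trait particular to the family. After subtraction of each group's mean, Pearson's r over the 8 libraries was between 0.953 and 0.995 for the 6 pairs among them. Genes outside the family reached r as high, such as HIST1H1C with IGFBP2 (r = 0.9996) and ERP29 with IGFBP4 (r = 0.999). How many of all tested genes reach such r was not counted. IGFBP3 reached r of 0.178 to 0.371 with these 4 genes and IGFBP1 0.264 to 0.520, values below those of the 6 pairs. The libraries numbered 5 held 66.4% to 73% of the squared deviations of IGFBP2, IGFBP4, IGFBP6 and IGFBP7, against 10.1% for IGFBP1 and 5.53% for IGFBP3. Without those libraries r among the 4 genes was 0.530 to 0.972 over 6 libraries, and r of IGFBP1 with IGFBP4 was 0.957, so the grouping of the members rested on them. Some ratios within a library were narrow. The ratio of IGFBP6 to IGFBP7, chosen after its values were seen and so not tested, was 1.65, 1.57, 1.66 and 1.64 in untreated replicates 1, 3, 4 and 5 and 0.914, 0.793, 0.985 and 0.83 in the dexamethasone replicates. IGFBP7 over IGFBP4 was 0.0393 ± 0.00124 in untreated and 0.0385 ± 0.00214 in dexamethasone libraries (SD, n = 4 each), with overlapping ranges.

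**Figure D2:**
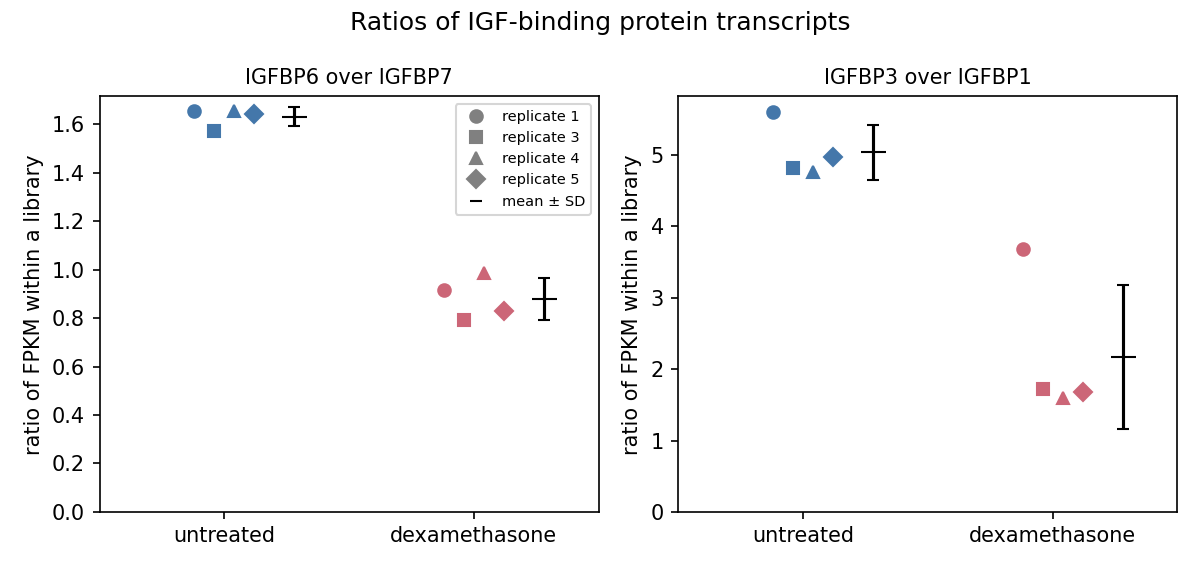
Ratio of FPKM within each library for IGFBP6 over IGFBP7 (left) and IGFBP3 over IGFBP1 (right), with the replicate number as the marker and the group mean ± SD in black (n = 4). Both ratios are lower in all 4 dexamethasone libraries than in any untreated library, and dexamethasone replicate 1 stands at 3.69 on the right, above 1.59 to 1.72 in the other 3.

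The family includes 2 pairs of neighbouring genes, whose changes were compared within libraries. IGFBP1 and IGFBP3 lie 18.6 kb apart on chromosome 7, on opposite strands with their 3′ ends facing each other. The log2 ratio of IGFBP3 to IGFBP1, on the log2(FPKM + 1) scale, was 2.14 ± 0.103 in untreated and 0.85 ± 0.434 in dexamethasone libraries (SD, n = 4 each). The difference of -1.29 reached the smallest p that 4 against 4 libraries allow (exact permutation p = 0.0286, two-sided), which after adjustment over 2 pairs was 0.0572 and did not pass. All 4 treated libraries were below every untreated one. IGFBP2 and IGFBP5 lie 7.67 kb apart on chromosome 2 in the same arrangement, and their log2 ratio differed by -0.03 between groups (exact permutation p = 0.943, adjusted p = 0.943). IGFBP5 is so low that its term is set mostly by the pseudocount of 1, so this ratio nearly restates IGFBP2 and shows nothing about whether the pair changed together.

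Other genes beside the members did not follow one direction. TNS4, which encodes a tensin of focal adhesions and lies 18.1 kb beyond IGFBP4, rose from 55.9 ± 4.60 to 157 ± 11.6 FPKM (SD, n = 4 each), with a log2 fold change of 1.48 (limma adjusted p = 0.000178). TOP2A, the DNA topoisomerase on the other side of IGFBP4 at 25.5 kb, had a log2 fold change of -0.61 (limma adjusted p = 0.0734). SPRYD3, 18.0 kb from IGFBP6, had a log2 fold change of -0.55 (limma adjusted p = 0.0783), with no overlap between groups. Both TOP2A and SPRYD3 passed the threshold without both libraries numbered 5, at -0.78 and -0.50, and with the GC trend removed, at -0.92 and -0.36. TOP2A also passed without untreated replicate 5, at -0.80, and SPRYD3 without dexamethasone replicate 5, at -0.66, and without scaling between libraries, at -0.56. NOA1 beside IGFBP7 and RPL37A beside IGFBP2 had log2 fold changes of 0.09 and 0.14 (limma adjusted p = 0.587 and 0.631), and NOA1 passed only with the GC trend removed, at 0.26 (limma adjusted p = 0.0264). SOAT2, 1.17 kb beyond IGFBP6, and AC096582.3, 15.3 kb from IGFBP1, were too low to be tested. SOAT2 was at 0.128 ± 0.0317 and 0.0105 ± 0.0125 FPKM (SD, n = 4 each), lower after dexamethasone with no overlap between groups. AC096582.3 was at 0.0318 FPKM or less in every library.

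By within-group deviations over the 8 libraries, the genes most like each member were listed, 2 for each. For IGFBP3 they were JUN (r = 0.968) and TSG101 (r = 0.953), and for IGFBP6 MCM5 (r = 0.997) and EIF5AL1 (r = 0.996). IGFBP4 was most like ERP29 (r = 0.999) and FANCG (r = 0.998), IGFBP7 most like SOX12 and RPP25 (both r over 0.99), and IGFBP2 most like HIST1H1C and TRMT2A (both r over 0.99). IGFBP1 was most like YWHAH (r = 0.989) and RAB40C (r = 0.979). These genes were picked as the highest of 12161. Without both of those libraries r was 0.950 to 0.997 for the 12 genes over 6 libraries. For the genes like IGFBP1 another library stood apart, dexamethasone replicate 1, where IGFBP1 was lowest, and r without it was not computed. YWHAH was at 6.39 FPKM there and at 60.9 to 66.1 FPKM in the other dexamethasone libraries, and RAB40C was at 1.95 FPKM there and at 6.39 to 7.79 FPKM in the others.

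The growth factors and receptors that the carriers serve were read from the same fit. Of 13 listed ligands, receptors and adaptors, 12 were found and 8 passed the filter, of which 4 were called higher and 2 lower. Over all tested genes 12.8% were called higher and 14.2% lower. The median log2 fold change of the 8 was 0.27, beside 0.03 over all tested genes. IGF2, the gene of the growth factor IGF-II, was at 4.97, 3.55, 2.99 and 2.35 FPKM among untreated and 1.45, 1.22, 1.36 and 1.30 FPKM among dexamethasone replicates 1, 3, 4 and 5. It fell with no overlap between groups (-0.89 on the log2 scale with an SE of 0.152, limma adjusted p = 0.00219), and its annotation overlaps INS-IGF2 on the same strand, so reads can be shared. IGF1, the gene of IGF-I, was listed at 0 in 7 of the 8 libraries and at 0.00531 FPKM in the other.

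IGF1R, the signalling receptor of both growth factors, was at 26.8 ± 9.58 and 28.2 ± 11.7 FPKM (SD, n = 4 each), a difference smaller than the spread (log2 fold change 0.07, limma adjusted p = 0.883). Its sign turned without 1 library, at -0.15 without dexamethasone replicate 3 and -0.10 without untreated replicate 5. IGF2R, the clearance receptor of IGF-II, rose from 14.6 ± 3.18 to 22.2 ± 2.71 FPKM (SD, n = 4 each; log2 fold change 0.60, limma adjusted p = 0.00814). The adaptor gene IRS2 rose from 8.18 ± 1.98 to 22.5 ± 1.84 FPKM (SD, n = 4 each; log2 fold change 1.40, limma adjusted p = 6.79e-05). Smaller changes were called for the insulin receptor gene INSR (log2 fold change 0.48, limma adjusted p = 0.026), IRS1 (0.61, limma adjusted p = 0.0332) and the adaptor gene GRB10 (-0.55, limma adjusted p = 0.0189). Each of these 3 calls was lost in fits that left out 1 library: INSR without dexamethasone replicate 1, 3 or 4, IRS1 without untreated replicate 4 or dexamethasone replicate 1, 3 or 4, and GRB10 without replicate 1 of either group, at adjusted p of 0.0502 to 0.0932. The calls of INSR and IRS1 were also lost without scaling between libraries, at limma adjusted p of 0.0771 and 0.103. IRS1 and INSR were lowest in untreated replicate 5, at 9.55 and 1.64 FPKM.

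Genes of the proteases that cut IGF-binding proteins, and of their inhibitors, changed in both directions. Of 18 listed, 17 were found and 11 passed the filter, with 5 called higher and 2 lower, beside 12.8% and 14.2% of all tested genes. Their median log2 fold change was 0.58, beside 0.03 over all tested genes. PAPPA, which encodes pappalysin-1, the protease of IGFBP4 and IGFBP5, was at 16.8, 18.0, 16.5 and 8.68 FPKM among untreated and 53.1, 48.3, 44.05 and 31.9 FPKM among dexamethasone replicates 1, 3, 4 and 5. It rose with no overlap between groups, and the library numbered 5 was the lowest of each (1.54 on the log2 scale with an SE of 0.184, limma adjusted p = 0.000274). STC1, a stanniocalcin that inhibits pappalysins, rose from 1.57 ± 0.367 to 6.23 ± 0.611 FPKM (SD, n = 4 each; log2 fold change 1.51, limma adjusted p = 1.9e-05), while its relative STC2 was at 8.31 ± 1.86 and 9.03 ± 1.05 FPKM (limma adjusted p = 0.51).

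Complement C1 proteases, of which C1s is known to cut IGFBP5, rose together. C1S went from 11.3 ± 1.69 to 44.2 ± 2.84 FPKM and C1R from 6.34 ± 1.07 to 26.5 ± 5.91 FPKM (SD, n = 4 each; log2 fold change 1.90 for each, limma adjusted p = 3.66e-06 and 0.000204). C1R overlaps C1RL on the same strand, so its reads can be shared. ADAM9 rose with a log2 fold change of 1.14 (limma adjusted p = 0.00875). The matrix metalloprotease genes MMP7 and MMP2 fell, by 1.42 and 1.13 on the log2 scale (limma adjusted p = 3.1e-05 and 0.000209). PAPPA2, the pappalysin of IGFBP3 and IGFBP5, was at 0.0156 FPKM or less in every library. Secreted protein, cleavage and free growth factor were not measured here.

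**Figure D3:**
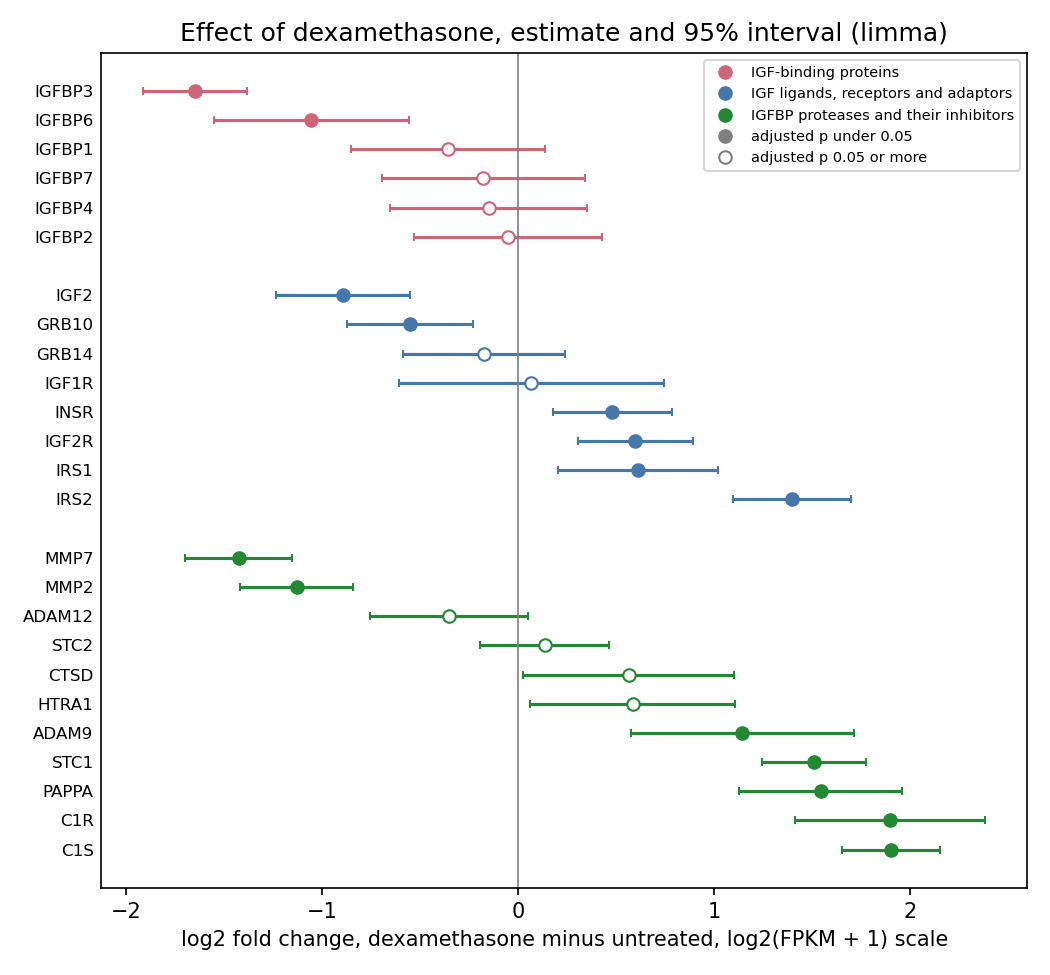
Log2 fold change (dexamethasone minus untreated, log2(FPKM + 1) scale) with 95% intervals from limma for the tested IGF-binding proteins, the ligands, receptors and adaptors, and the proteases and their inhibitors; filled points have an adjusted p under 0.05. IGFBP3 and IGFBP6 are the 2 filled points of the family, both below 0, while PAPPA, C1R and C1S lie above 1.5.

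Relatives that share the IGF-binding domain were also split by direction. Of 13 listed proteins with such a domain 12 were found, 5 of them under the older symbols of the CCN genes, and 9 passed the filter. Of these 9, 4 were called higher and 4 lower, beside 12.8% and 14.2% of all tested genes. IGFBPL1, the closest of these by name, fell from 5.46 ± 0.427 to 1.55 ± 0.247 FPKM (SD, n = 4 each; log2 fold change -1.34, limma adjusted p = 0.000147). The matricellular gene CCN1 fell from 29.6 ± 1.17 to 18.6 ± 2.21 FPKM, and CCN2 rose from 15.2 ± 2.11 to 25.3 ± 3.91 FPKM (SD, n = 4 each; limma adjusted p = 0.0119 and 0.00521). CCN5, CRIM1 and CCN3 rose, with log2 fold changes of 0.95, 0.85 and 0.60, and HTRA3 and KAZALD1 fell, with -0.85 and -0.62 (limma adjusted p of 0.000152 to 0.0298 for these 5). The KAZALD1 call was lost without dexamethasone replicate 1, 3 or 4, at adjusted p of 0.0719 to 0.0802.

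Of 14 listed partners through which IGF-binding proteins act at the cell surface or inside cells, 12 passed the filter. Of these 2 were called higher and 2 lower, beside 12.8% and 14.2% of all tested genes, and the median log2 fold change was -0.03. ITGA5, the integrin subunit bound by IGFBP1, rose from 13.1 ± 0.722 to 50.9 ± 6.59 FPKM, and the caveolin gene CAV1 rose from 82.2 ± 45.3 to 288 ± 50.6 FPKM (SD, n = 4 each; limma adjusted p = 2.99e-05 and 0.00241). The nuclear receptor gene NR4A1 and the Wnt receptor gene FZD8 fell, with log2 fold changes of -1.29 and -0.98 (limma adjusted p = 0.000259 and 0.00113). TMEM219, which encodes a cell-death receptor for IGFBP3, was at 25.5 ± 7.29 and 22.6 ± 3.39 FPKM (SD, n = 4 each; limma adjusted p = 0.719).

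Transcription factors known from IGF-binding protein promoters, the FOXO genes above all for IGFBP1, gave 5 called higher and 1 lower of 9 tested. FOXO1 rose from 1.51 ± 0.410 to 7.81 ± 1.60 FPKM and FOXO3 from 3.09 ± 0.772 to 11.5 ± 1.45 FPKM (SD, n = 4 each; limma adjusted p = 2.11e-05 and 2.19e-05). FOXO4, CEBPB and HIF1A rose as well, with log2 fold changes of 0.74, 1.58 and 1.25, and CEBPA fell, with -0.75 (limma adjusted p of 0.000135 to 0.0171 for these 4). The CEBPA call was lost without dexamethasone replicate 3 or 4, at adjusted p of 0.052 and 0.0577. The IGF2 mRNA-binding proteins, which share part of the name but are RNA-binding proteins and not carriers, gave 2 called higher of 3 tested. IGF2BP2 had a log2 fold change of 0.56 and IGF2BP3 of 0.84 (limma adjusted p = 0.00901 and 0.0299), and the IGF2BP3 call was lost without dexamethasone replicate 1, 3 or 4, at adjusted p of 0.057 to 0.0825, and without scaling between libraries, at 0.0783. All of these lists were read beside the 14.2% of tested genes called lower and 12.8% called higher.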

How the data were processed

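Total RNA of 8 A549 wells was sequenced. Per the labels' protocols, ribosomal RNA was depleted and libraries were made with random hexamers. Per the submitters' processing notes, FastQC 0.11.9, cutadapt 3.4, STAR 2.7.9a, featureCounts (Subread 2.0.3) and DESeq2 1.32.0 were used with GRCh38. The deposited values are described as counts but hold no whole number above 0, and were read as FPKM; the step that made them is not given in the sources used here. Steps between low values gave no single depth per library (47.4% to 53.1% of them near whole fragments), so no count test was run and depth per library is unknown.

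Here scaling factors between libraries came from trimmed means of M values (trims 0.3 and 0.05), and log2(FPKM + 1) was fitted with limma 3.58.1 in R 4.3.3 (trend, robust, group as the only term) over all 12161 genes with 0.5 FPKM or more in at least 4 libraries (3 where a library was left out). Printed FPKM are as deposited. GENCODE v44 gave strand, GC content and overlaps for 19065 genes. Tested on simulated data (4 against 4 libraries with the untreated means and spread), the fit recovered 38% of 200 genes changed 2-fold among 12074 genes, with 4 other calls, and 81% of 200 changed 4-fold among 12065, with 6. The simulation drew each gene independently, whereas genes deviated together in these libraries, so its rates need not hold for these data. Named genes were the 7 members, FKBP5, TSC22D3 and PER1, called genes of the lists with fixed ligands, receptors and pappalysin genes, the nearest gene within 250 kb on each side of a member, and the 2 genes most alike; of the check genes only FKBP5 is given. Members and lists were chosen with earlier results of these data known. INS, MMP3 and CCN6 were not analysed here. One listed gene was left out of its list and its counts and is not reported here; other listed genes without a call are mostly given only in the counts. Alternatives were another pseudocount, filter, scaling, variance model and block, GC correction and leaving out libraries.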

Additional observations from a re-analysis of the deposited data

Results flagged for a closer look

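Single libraries that stood apart from the other 3 of their group were sought in 98 groups of values, where chance gives about 1 in 20, and 13 were found. Of these, 10 were untreated replicate 5. In that library IGFBP2 (43.8 FPKM against 30.7 to 32.2), IGFBP4 (1367 against 1026 to 1066), IGFBP6 (91.9 against 64.4 to 68.4) and IGFBP7 (55.9 against 39.2 to 41.4) stood above the other untreated libraries. INSR (1.64 FPKM), IRS1 (9.55), IGF2BP3 (4.77), PAPPA (8.68) and HTRA3 (1.28) stood below them, and the log2 ratio of IGFBP2 to IGFBP5 was 5.46 against 4.55 to 4.67. In dexamethasone replicate 5 that ratio was 5.16 against 4.65 to 4.73. In dexamethasone replicate 1 the log2 ratio of IGFBP3 to IGFBP1 was 1.5 against 0.57 to 0.69. IGF1 was at 0.00531 FPKM in untreated replicate 3 and at 0 in the other untreated libraries. What set these libraries apart was not tested.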

How the results depend on the processing

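The falls of IGFBP3 and IGFBP6 were called in all 16 alternatives, with log2 fold changes of -1.75 to -1.54 and -1.18 to -0.78, so the counts of members called lower (2) and higher (0) were the same in each. No alternative called IGFBP1, IGFBP2, IGFBP4 or IGFBP7. Over all genes 3275 were called, 5759 with the replicate block and 5513 without both libraries numbered 5; leaving out 1 library gave 2335 to 3856. Same-numbered libraries deviated from their group means with r of 0.289, 0.0664, 0.313 and 0.712 for numbers 1, 3, 4 and 5. Untreated replicate 3 was closer to dexamethasone replicate 1 (r = 0.432), so the numbers were not taken as pairs, although the libraries numbered 5 were alike across groups. With the replicate block the SEs of IGFBP2, IGFBP4, IGFBP6 and IGFBP7 were 0.0988, 0.108, 0.116 and 0.108, against 0.214, 0.224, 0.222 and 0.230 in the main fit. IGFBP6 then had a limma adjusted p of 0.000351. The log2 ratio of IGFBP3 to IGFBP1 (-1.29) was -1.51 to -1.20 without 1 library, with exact permutation p of 0.0286 or 0.0571. It was -1.23 without both libraries numbered 5 (exact p = 0.1) and -1.29 with the replicate block (exact sign-flip p = 0.125), where these are the smallest p such designs allow. The other 55 named genes gave 880 values, of which 22 lost and 11 gained a call, TOP2A and SPRYD3 also with the replicate block. The sign turned in 7 of 96 values of members and 7 of these 880, always in genes without a call. With the GC trend removed the log2 fold changes were 0.14 for IGFBP2, 0.10 for IGFBP4, -0.012 for RPL37A, 0.026 for TRMT2A and 0.14 for SOX12. Without both libraries numbered 5 they were 0.0030 for IGFBP2 and -0.11 for IGF1R. Without 1 library they ranged from -0.18 to 0.13 for IGFBP2, -0.28 to 0.014 for IGFBP4, -0.33 to 0.0021 for IGFBP7, -0.15 to 0.33 for IGF1R and -0.20 to 0.0031 for SOX12. The log2 ratio of IGFBP2 to IGFBP5 was 0.029 with a pseudocount of 0.1, 0.067 without both libraries numbered 5 and -0.15 to 0.19 without 1 library. Only the stated range of depth is known and not the depth of each library, which limits what can be said of IGFBP5.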
